A study of Mus musculus with 8 samples.

Results

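Abra, Xirp1, Xirp2, Ankrd1, Ankrd2, Ankrd23, Csrp3 and Srf are genes of the muscle response to load and stress, and their mRNA was followed in quadriceps muscle with and without the nucleoporin Nup210. They were taken by gene name from the deposited expression table, 8 of its 47643 genes, and all 8 were among the 14229 genes expressed well enough to be compared between genotypes. The list was selected on the difference between genotypes in these same libraries, with the values of Xirp1 and Abra known. Their genotype differences are therefore given as a description, with standard errors and without p-values.

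Except for Srf, which encodes a transcription factor, these genes act where the contractile apparatus meets mechanical force. The Xin proteins encoded by Xirp1 and Xirp2 bind and stabilise actin filaments at the Z-disc and at the junction of muscle with tendon, and the muscle ankyrin repeat proteins encoded by Ankrd1, Ankrd2 and Ankrd23 bind the spring region of titin and can enter the nucleus. Csrp3 encodes the muscle LIM protein of the Z-disc. Abra encodes STARS, an actin-binding protein that promotes actin polymerisation, which releases myocardin-related transcription factors from actin to activate serum response factor, the product of Srf.

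Quadriceps muscle was taken from 4 Nup210+/+ mice and from 4 Nup210-/- mice of strain C57BL/6 by the labels, backcrossed to C57BL/6J by the methods of the study, with 1 library per mouse. The Nup210-/- line is a constitutive knockout, made with an Hprt-Cre transgene that removed exon 2 of a loxP-flanked Nup210 allele, so the deletion was present in every cell type and throughout development. No injury or treatment was applied according to the labels, and the age and sex of these mice are not given in the sources used here. Polyadenylated RNA of whole muscle was sequenced from one end in directional libraries, and expression was deposited as TPM, the estimate for a gene per transcript length, brought to the same total in each library. In such bulk samples, fewer cells of a type and less RNA per cell cannot be told apart.

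Nup210 mRNA was examined first, because it bears on the labels. It was at 9.54, 10.79, 11.93 and 8.81 TPM in Nup210-/- replicates 1 to 4 and at 5.71, 10.11, 9.19 and 6.71 TPM in Nup210+/+ replicates 1 to 4, so it was not lower in the libraries labelled Nup210-/-. A value per gene does not show whether exon 2 was present, and every direction below rests on the labels alone. The skeletal muscle identity of the samples was clear, with Acta1, the actin of skeletal muscle, at 22077 ± 833 TPM in Nup210-/- against 20329 ± 1190 TPM in Nup210+/+ (SD, n = 4). Nup210+/+ replicate 2 stood apart in 6 genes of granulocyte precursors, which summed to 381.69 TPM there against 0.31 to 2.12 TPM in the other libraries, and values that rest on this library are also given without it. Genotypes were compared with limma on log2(scaled TPM + 1), where scaling divides each library by its median ratio to the other libraries, and a log2 fold change is always Nup210-/- minus Nup210+/+. Over the 14229 genes tested, the median log2 fold change was -0.01, and 9 genes (0.0633%) were lower and 7 (0.0492%) higher at an adjusted p of 0.05. With TPM as deposited the median moved to -0.08 and the split to 12 lower and 2 higher genes, and with upper-quartile scaling it was 7 lower and 0 higher, so directions of small differences depend on the scaling.

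The promoters of these genes are shown first where they hold binding motifs of muscle factors, since Srf is both a regulator and one of the genes described. RefSeq promoters of build GRCm38.p6, from 250 bases before to 50 bases after the start site, matched 6 of the 8 genes, with 8 promoters in all, and Abra and Xirp1 were not matched. Motifs were searched on both strands as the CArG box bound by serum response factor, the MEF2 site, the MCAT element bound by TEAD factors (CATTCC), the TATA box (TATAAA), the NFAT core (GGAAA) and the E-box (CANNTG), which can overlap one another, and they were chosen knowing which genes would be searched.

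The Srf promoter held 2 CArG boxes, shown in capitals within chr17:46556195-46556264 (minus strand, printed 5′ to 3′), from 102 to 33 bases upstream of the start. Of 32851 mouse promoters of the same length, 1.63% held a CArG box.
Srf: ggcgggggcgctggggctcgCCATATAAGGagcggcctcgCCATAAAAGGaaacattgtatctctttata

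The Xirp2 promoter held a MEF2 site, in capitals within chr2:67445908-67445957 (plus strand), as did 3.19% of all promoters.
Xirp2: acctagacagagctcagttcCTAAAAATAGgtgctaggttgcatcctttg

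The Ankrd1 promoter held 2 MCAT elements, which read GGAATG on the strand of the gene and are in capitals within chr19:36120037-36120066 and chr19:36119950-36119979 (minus strand). An MCAT element was present in 14.7% of all promoters.
Ankrd1, distal: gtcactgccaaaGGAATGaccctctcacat
Ankrd1, proximal: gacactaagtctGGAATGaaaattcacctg

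Each of the 2 Ankrd23 promoters held 1 MCAT element and 2 NFAT cores, the Ankrd2 promoter held a TATA box and 3 E-boxes, and the 2 Csrp3 promoters held E-boxes and, in 1 of them, an NFAT core. The Srf promoter also held a TATA box and an NFAT core. E-boxes were present in 72.3%, NFAT cores in 61.3% and TATA boxes in 13.6% of all promoters, so their presence says little about a single gene. CArG boxes were found in the Srf window but not in the matched windows of Xirp2, Ankrd1, Ankrd2, Ankrd23 or Csrp3, which says only that these letters are not in those windows.

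The 8 genes spanned a wide range of expression in normal muscle. Ankrd23 was the most abundant in Nup210+/+, at a mean level of 1466 TPM, the 50th highest of all genes, and Ankrd1 the least abundant, at 7.59 TPM and rank 7185, a difference of 193-fold between them. Between them came Xirp2 (401 TPM), Abra (309 TPM), Ankrd2 (184 TPM), Csrp3 (167 TPM), Xirp1 (128 TPM) and Srf (22.4 TPM). The ranges of neighbours in this order did not overlap among the Nup210+/+ libraries, except those of Ankrd2 with Csrp3 and of Csrp3 with Xirp1. In Nup210-/- the order was the same but for Csrp3, which came before Ankrd2.

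**Figure D1:**
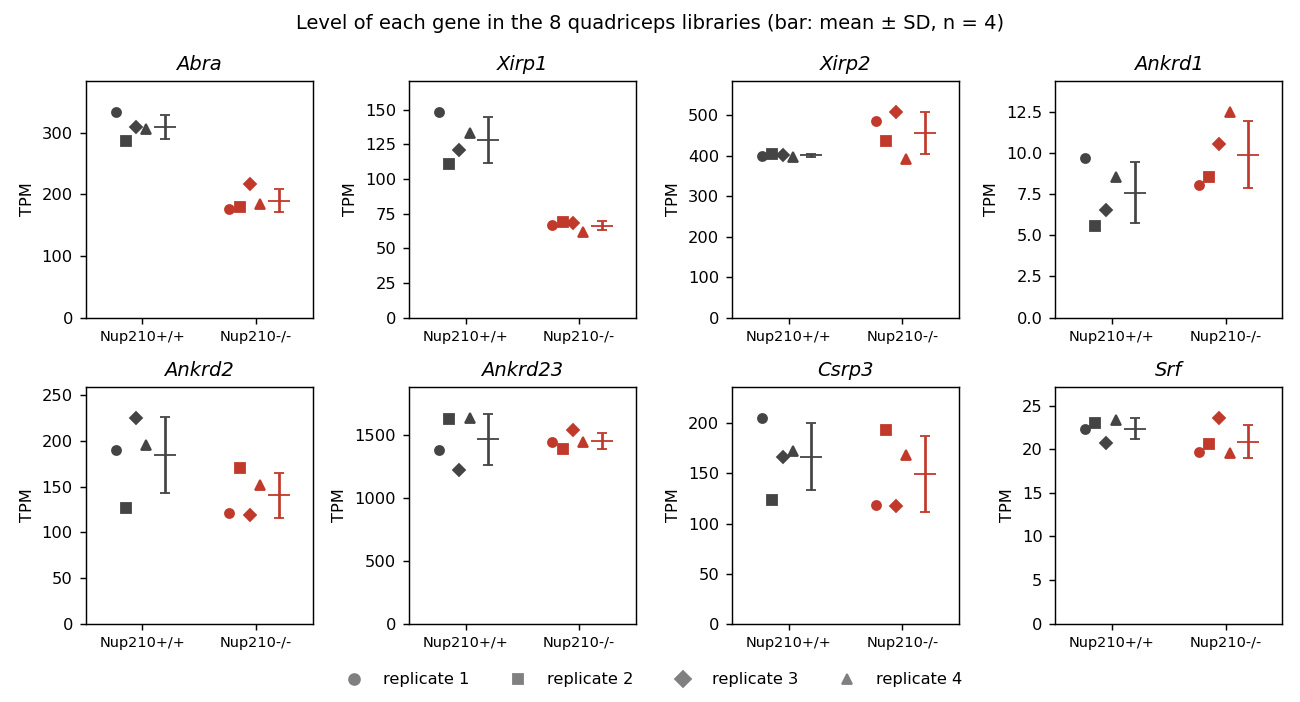
Level of each of the 8 genes in TPM (vertical axes, starting at 0) in the 4 Nup210+/+ and 4 Nup210-/- libraries, 1 point per mouse, with the mean ± SD beside the points. The Nup210-/- libraries lie below all Nup210+/+ libraries for Abra (at most 217.31 against at least 285.65 TPM) and Xirp1 (at most 68.68 against at least 110.46 TPM), and the genotypes overlap for the other 6 genes.

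Between genotypes, Xirp1 and Abra were lower in Nup210-/-, Xirp2 was slightly higher on the scaled values, and Ankrd1, Ankrd2, Ankrd23, Csrp3 and Srf overlapped. The fitted log2 fold change was below 0 for 5 genes and above 0 for 3, with a median of -0.04, while 51.3% of all tested genes were below 0. On TPM, 2 genes did not overlap with Nup210-/- lower, as for 6.87% of all tested genes, and 0 did not overlap with Nup210-/- higher, as for 1.54%. On scaled TPM, 1 gene, Xirp2, did not overlap with Nup210-/- higher, against 4.78% of all genes. Xirp1 and Abra are 2 of the 9 genes called lower (0.0633% of those tested), which is a property of the selection and is read no further.

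**Figure D2:**
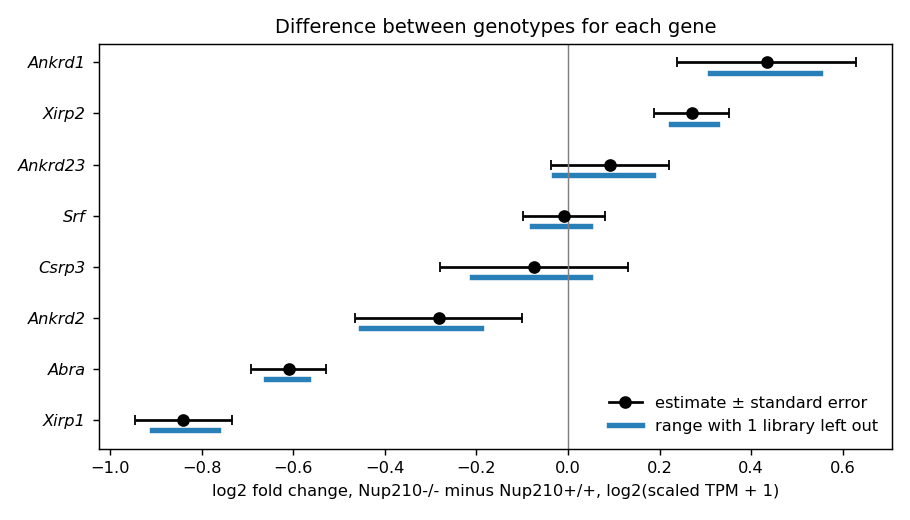
Difference between genotypes for each gene as the log2 fold change, Nup210-/- minus Nup210+/+, of scaled TPM + 1 (horizontal axis), with the standard error as thin bars and the range over 8 fits that each left out 1 library as thick bars. Xirp1 (-0.84) and Abra (-0.61) lie farthest below 0, and the thick bars of Ankrd23, Csrp3 and Srf cross 0.

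Abra lies on chromosome 15 (GRCm38, 41864076 to 41869720, minus strand), and its annotated transcript has 2 exons and encodes 375 amino acids. Its mRNA was at 333.54, 285.65, 308.49 and 306.55 TPM in Nup210+/+ replicates 1 to 4 and at 176.78, 179.63, 217.31 and 183.84 TPM in Nup210-/- replicates 1 to 4. Every Nup210-/- library was below every Nup210+/+ library, with 68.34 TPM between the nearest libraries. The mean was 309 ± 19.6 TPM in Nup210+/+ against 189 ± 18.8 TPM in Nup210-/- (SD, n = 4), a ratio of 0.614 and a log2 fold change of -0.61 (SE 0.0820). With 1 library left out in turn, the ratio was between 0.584 and 0.631, and without Nup210+/+ replicate 2 the log2 fold change was -0.65. The spread of Abra between mice of a genotype, 0.122 as the residual SD on the log2 scale, was at percentile 46.2 of the 558 genes within 2-fold of its level, so it was an ordinary spread for such a gene.

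Xirp1 is on chromosome 9 (GRCm38, 120013755 to 120023598, minus strand), where 1 exon of 3390 coding bases holds 99.8% of the coding sequence. Xirp1 mRNA was at 148.38, 110.46, 120.71 and 133.44 TPM in Nup210+/+ replicates 1 to 4 and at 66.53, 68.68, 68.49 and 61.57 TPM in Nup210-/- replicates 1 to 4. The Nup210-/- libraries were all lower and close to each other, and the nearest libraries of the genotypes were 41.78 TPM apart. Over both genotypes the residual SD of Xirp1, 0.169, was at percentile 79.8 of the 1363 genes within 2-fold of its level. From a mean of 128 ± 16.4 TPM in Nup210+/+ to 66.3 ± 3.31 TPM in Nup210-/- (SD, n = 4), the ratio was 0.517 and the log2 fold change -0.84 (SE 0.106). This was the lowest value of the 8 genes. Leaving out any 1 library gave ratios from 0.494 to 0.546, and without Nup210+/+ replicate 2 the log2 fold change was -0.91.

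Xirp2, the other Xin gene, is on chromosome 2 (GRCm38, 67446002 to 67526614, plus strand), and its longest coding exon of 9265 bases holds 81.6% of the coding sequence. It was at 399.93, 405.26, 402.56 and 396.85 TPM in Nup210+/+ replicates 1 to 4 and at 485.76, 436.83, 508.12 and 390.89 TPM in Nup210-/- replicates 1 to 4. On TPM the Nup210+/+ libraries were nearly identical, with a coefficient of variation of 0.897%, and 3 Nup210-/- libraries lay above them while replicate 4 lay below. On scaled log2 values the Nup210+/+ libraries ran from -0.11 to 0.10 around their mean. The residual SD of 0.120 was at percentile 39.7 of the 353 genes within 2-fold of its level, an ordinary spread. The means were 401 ± 3.60 and 455 ± 52.3 TPM (SD, n = 4), a ratio of 1.14 and a log2 fold change of 0.27 (SE 0.0818). The separation of the genotypes on scaled TPM was lost with each of the other 3 scalings, and with TPM as deposited the log2 fold change was 0.18. The gene model Gm13601 on the opposite strand shares 0.802% of the read-length windows of Xirp2.

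The estimates of both Xin genes thus had opposite signs, and their total differed little between genotypes. Xirp1 and Xirp2 summed to 522 ± 54.8 TPM in Nup210-/- against 529 ± 13.9 TPM in Nup210+/+ (SD, n = 4), a ratio of 0.985. Xirp1 made up 27.1%, 21.4%, 23.1% and 25.2% of this sum in Nup210+/+ replicates 1 to 4 and 12.05%, 13.6%, 11.9% and 13.6% in Nup210-/- replicates 1 to 4. The share does not depend on the scaling of the libraries, and the ranges of the genotypes were apart, with means of 24.2% ± 2.46 and 12.8% ± 0.946 (SD, n = 4). The list was selected with the difference of Xirp1 known, so this separation of the shares adds no further support to it.

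**Figure D3:**
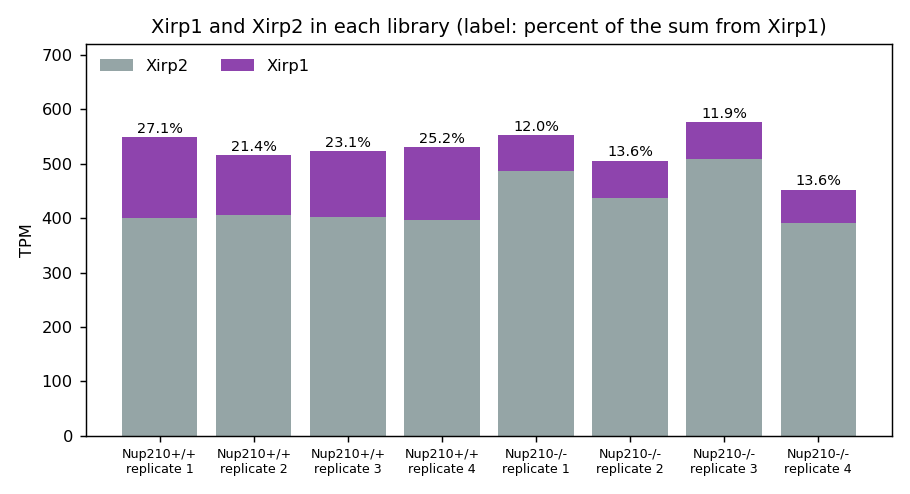
TPM of Xirp2 and Xirp1 stacked in each of the 8 libraries (vertical axis in TPM, starting at 0), with the percent of the sum that came from Xirp1 above each bar. The share of Xirp1 is 21.4 to 27.1% in Nup210+/+ and 11.9 to 13.6% in Nup210-/-, while the mean height of the bars differs little (529 and 522 TPM).

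For each of the 3 muscle ankyrin repeat genes the genotypes overlapped when all libraries were compared. Ankrd23, on chromosome 1 (GRCm38, 36530188 to 36536883, minus strand), encodes DARP, the member of the family first described in diabetic muscle. It was at 1381.87, 1626.13, 1220.33 and 1634.62 TPM in Nup210+/+ replicates 1 to 4 and at 1445.76, 1385.36, 1537.57 and 1444.25 TPM in Nup210-/- replicates 1 to 4. The Nup210-/- values all lay inside the Nup210+/+ range, with means of 1453 ± 62.9 and 1466 ± 201 TPM (SD, n = 4) and a log2 fold change of 0.09 (SE 0.129). In GENCODE M21 the gene model Gm42417, not analysed here, overlaps Ankrd23 on the same strand and shares 73% of its windows of 75 bases, so the level of Ankrd23 is uncertain to the extent that the counting divided reads between them.

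Ankrd2, on chromosome 19 (GRCm38, 42036000 to 42045110, plus strand), encodes the ankyrin repeat protein typical of slow fibres and of stretched muscle. It was at 190.02, 126.32, 224.89 and 195.66 TPM in Nup210+/+ replicates 1 to 4 and at 121.02, 169.97, 118.71 and 151.19 TPM in Nup210-/- replicates 1 to 4. Replicate 2 was the low library in Nup210+/+ and lay within the Nup210-/- range, and the other Nup210+/+ libraries lay above all Nup210-/- libraries. The means were 184 ± 41.5 and 140 ± 24.7 TPM (SD, n = 4), a ratio of 0.761, with a log2 fold change of -0.28 (SE 0.181) from all libraries and -0.45 without Nup210+/+ replicate 2. That library alone thus moved the value by more than any of the other settings tried. Without it the ratio was 0.689 and the genotypes did not overlap, but the share of all genes that do so without it is not given here.

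Ankrd1, on the same chromosome (GRCm38, 36111961 to 36120099, minus strand), encodes CARP, which is abundant in heart and is induced in injured or denervated skeletal muscle. It was at 9.71, 5.59, 6.54 and 8.53 TPM in Nup210+/+ replicates 1 to 4 and at 8.03, 8.53, 10.53 and 12.50 TPM in Nup210-/- replicates 1 to 4. The genotypes overlapped between 8.03 and 9.71 TPM, with means of 7.59 ± 1.87 and 9.90 ± 2.04 TPM (SD, n = 4) and a log2 fold change of 0.43 (SE 0.196). Ankrd1 was among the more variable genes at its level, at percentile 90.0 of 4581 genes within 2-fold.

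Together the ankyrin repeat genes summed to 1603 ± 46.3 TPM in Nup210-/- against 1658 ± 174 TPM in Nup210+/+ (SD, n = 4). Ankrd23 supplied 90.6% and 88.2% of these sums, and Ankrd2 supplied 8.77% and 11.3%, as means over the libraries of each genotype.

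Csrp3 is on chromosome 7 (GRCm38, 48830398 to 48848033, minus strand) and encodes a protein of 194 amino acids. It was at 205.32, 123.49, 166.56 and 172.23 TPM in Nup210+/+ replicates 1 to 4 and at 118.73, 193.49, 117.38 and 168.46 TPM in Nup210-/- replicates 1 to 4. Both genotypes held low and high libraries, and the means of 167 ± 33.6 and 149.5 ± 37.7 TPM (SD, n = 4) gave a log2 fold change of -0.07 (SE 0.205), or -0.21 without Nup210+/+ replicate 2. At percentile 96.4 among 854 genes of like level, Csrp3 was the most variable of the 8 genes by this measure, followed by Ankrd2 at percentile 95.8 among 829.

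The variation of Csrp3 and Ankrd2 ran alongside that of the slow fibre genes. The 9 slow fibre markers, among them the slow myosin gene Myh7 and the slow light chain gene Myl2, summed to 1121.46, 2057.89, 1137.49 and 2022.64 TPM in Nup210-/- replicates 1 to 4 and to 2166.87, 1361.88, 2012.68 and 2152.44 TPM in Nup210+/+ replicates 1 to 4, a 1.93-fold range. The libraries with low sums, Nup210-/- replicates 1 and 3 and Nup210+/+ replicate 2, were those with the lowest Csrp3, and the same 3 libraries had the lowest Ankrd2. Expressed as a percent of the slow fibre sum, Csrp3 was 10.6, 9.40, 10.3 and 8.33% in Nup210-/- replicates 1 to 4 and 9.48, 9.07, 8.28 and 8.002% in Nup210+/+ replicates 1 to 4. Its range over the 8 libraries narrowed from 1.75-fold as a level to 1.32-fold as this percent.

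For Ankrd2 the range narrowed from 1.89-fold to 1.49-fold, by a decrease of the coefficient of variation in Nup210+/+ from 22.5 to 11.3%, whereas in Nup210-/- it was 17.6% both ways. The range of each of the other 6 genes widened when taken as a percent of the slow fibre sum, for Abra from 1.89-fold to 2.40-fold and for Xirp1 from 2.41-fold to 2.66-fold. Of the 9 slow fibre markers, limma called 0 at an adjusted p of 0.05, and 0 had an unadjusted p under 0.05. Their median log2 fold change was -0.17, and it was -0.33 without Nup210+/+ replicate 2. Without Nup210-/- replicate 1 or 3 it was 0.01 or -0.01. Their part in the values of Csrp3 and Ankrd2 was not tested.

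**Figure D4:**
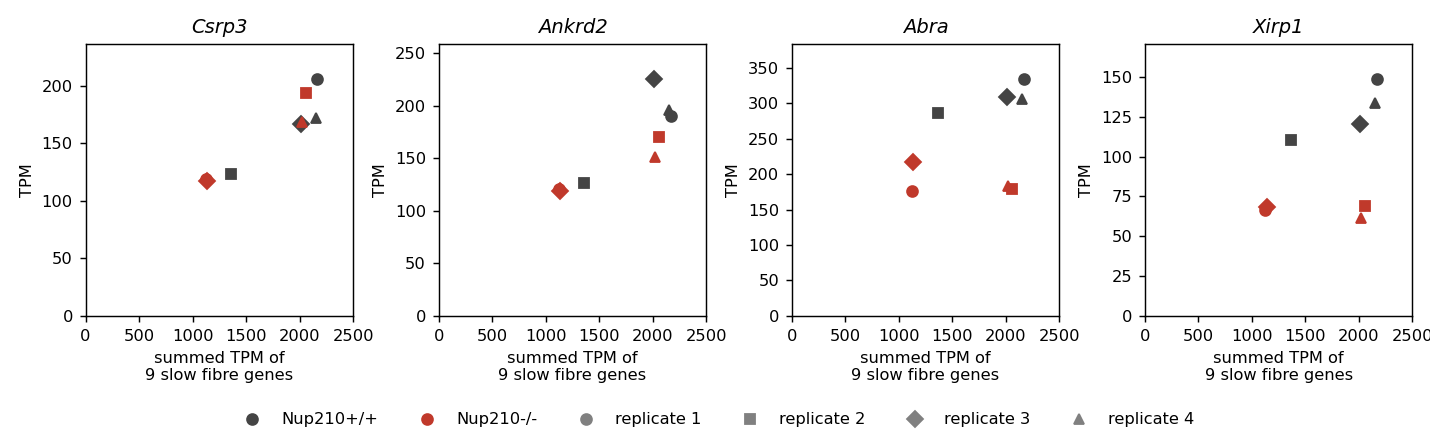
TPM of Csrp3, Ankrd2, Abra and Xirp1 (vertical axes) against the summed TPM of 9 slow fibre markers (horizontal axes) in the 8 libraries, all axes starting at 0. For Csrp3 and Ankrd2 the 3 libraries with the lowest slow fibre sums (1121.46 to 1361.88 TPM) are also the lowest, whereas for Abra and Xirp1 the points separate by genotype at low and at high sums.

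Srf, on chromosome 17 (GRCm38, 46548329 to 46556175, minus strand), encodes a protein of 504 amino acids. It was at 22.29, 23.05, 20.75 and 23.36 TPM in Nup210+/+ replicates 1 to 4 and at 19.71, 20.56, 23.57 and 19.55 TPM in Nup210-/- replicates 1 to 4. Nup210-/- replicate 3 was the highest of all libraries while the other 3 Nup210-/- libraries were the lowest, with means of 22.4 ± 1.17 and 20.8 ± 1.87 TPM (SD, n = 4). The log2 fold change was -0.01 (SE 0.0890), and it ranged from -0.08 to 0.05 when single libraries were left out. On the scaled log2 values Srf thus differed between genotypes by less than its residual SD of 0.128. On TPM the difference of the means, -1.515 TPM, was larger in size than the SD in Nup210+/+ but smaller than that in Nup210-/-. With TPM as deposited the log2 fold change was -0.10.

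Within Nup210+/+, replicates 1 and 4 were above replicates 2 and 3 for Xirp1, Ankrd1 and Csrp3 on TPM as well as on scaled TPM. As deviations from the Nup210+/+ mean on the log2 scale, Xirp1 was at 0.23, -0.21, -0.20 and 0.18 and Ankrd1 at 0.35, -0.36, -0.27 and 0.28 in replicates 1 to 4. Csrp3 was at 0.33, -0.41, -0.10 and 0.18. Abra was at 0.12, -0.11, -0.12 and 0.11 on that scale, but on TPM its replicate 4 lay just below replicate 3. In Nup210-/-, Ankrd1 was highest in replicate 4 (0.37), where Xirp1 was lowest (-0.06) and Xirp2 was also lowest (-0.16).

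For each gene, the genes with the most similar pattern were found by Pearson correlation of log2 values over the 8 libraries, among 8380 genes with a mean of at least 5 TPM. These correlations describe 8 libraries that share genotype, scaling and library quality, so those of Abra and Xirp1 include the difference between genotypes. Xirp1 was most like Serpinh1 (r = 0.986), which encodes the collagen chaperone HSP47, and Rcan1 (r = 0.980), which encodes a regulator of calcineurin. Abra was most like Gng11 (r = 0.980), a G protein gamma subunit gene, and again Serpinh1 (r = 0.969). Serpinh1 was at 49.3 ± 4.40 TPM in Nup210-/- against 83.6 ± 11.5 TPM in Nup210+/+, and Rcan1 at 45.3 ± 1.14 and 132.5 ± 22.7 TPM (SD, n = 4), both without overlap.

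Csrp3 was most like Myh7 (r = 0.967) and Atp2a2 (r = 0.959), which encode the slow myosin heavy chain and the calcium pump of slow and heart muscle. Ankrd2 was most like Lmod2 (r = 0.966), which encodes the actin filament nucleator leiomodin, and Ski (r = 0.939), a corepressor gene. Xirp2 was most like Sec23a (r = 0.989), a coat protein gene of vesicles leaving the endoplasmic reticulum, and Amacr (r = 0.967). Ankrd23 was most like Cox7a2l (r = 0.973) and Zmat2 (r = 0.969), Srf most like Ppp2r2d (r = 0.942) and Tcf25 (r = 0.938), and Ankrd1 most like Gps2 (r = 0.953) and Tcf15 (r = 0.950).

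The wider pathways around these genes were described by lists of their signalling components, targets and partners. None of the 7 lists held a gene past an adjusted p of 0.05 in limma with Benjamini-Hochberg adjustment over all genes tested, and the numbers at an unadjusted p of 0.05 are given for each, beside 7.18% of all tested genes lower and 7% higher at that level. With library weights in limma, 1 gene of the 7 lists, Enah, passed.

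Of 19 genes that carry signals from actin to serum response factor, 18 were tested, and 6 were lower and 0 higher at an unadjusted p of 0.05. Their median log2 fold change was -0.11, or -0.20 with TPM as deposited and -0.04 and -0.07 without Nup210-/- replicate 4 and Nup210+/+ replicate 3. Cfl1, the actin-severing protein cofilin of non-muscle cells, had the lowest value, with 39.5 ± 1.38 TPM in Nup210-/- against 66.5 ± 25.9 TPM in Nup210+/+ (SD, n = 4) and a log2 fold change of -0.58 (SE 0.200, limma adjusted p = 0.248). It was highest in Nup210+/+ replicate 2 (104.75 TPM), without which its log2 fold change was -0.34. Fhl1, a LIM-domain protein gene and the most abundant of the list, was at 850 ± 123 and 821 ± 101 TPM.

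Of 20 targets of serum response factor in the contractile apparatus and cytoskeleton, 18 were tested, and 7 were lower and 2 higher at an unadjusted p of 0.05, with 13 below and 5 above 0. The median was -0.20, against -0.01 for all genes tested, and the lowest adjusted p in limma was 0.124. With TPM as deposited the median was -0.30, and with single libraries left out it ran from -0.20 to -0.14, with -0.14 without Nup210+/+ replicate 2. Dstn, which encodes the actin-depolymerising factor destrin, had the lowest log2 fold change, -0.55 (SE 0.136, limma adjusted p = 0.154), at 27.2 ± 2.46 TPM in Nup210-/- against 43.8 ± 10.5 TPM in Nup210+/+. Dstn too was highest in Nup210+/+ replicate 2 (57.74 TPM), and was at -0.41 without it. Acta1 had the highest, 0.21 (limma adjusted p = 0.351; 0.12 with TPM as deposited), and takes most of the summed TPM of the list. Some of these targets were also counted as smooth muscle markers. Among those tested, Acta2 was at 14.9 ± 0.605 TPM in Nup210-/- against 21.6 ± 3.24 TPM in Nup210+/+ (SD, n = 4). Its log2 fold change was -0.41 (limma adjusted p = 0.179), and that of Tagln was -0.08. All smooth muscle markers summed to 193.49 to 213.08 TPM in Nup210-/- against 192.31 to 233.34 TPM in Nup210+/+. These sums include genes that are not among the targets, so they do not describe the shared genes. The median of the 7 tested markers was -0.02, with 1 lower and 1 higher at an unadjusted p of 0.05.

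Of 11 immediate early targets of serum response factor, 8 were tested, and 0 were called in limma, with 0 of the 8 at an unadjusted p of 0.05 in either direction. Egr1 was at 7.85 ± 5.60 TPM in Nup210-/- against 4.59 ± 1.24 TPM in Nup210+/+ and Fos at 10.1 ± 6.40 and 13.9 ± 6.92 TPM (SD, n = 4). The SD between mice was larger than the difference in both genotypes for Fos, but only in Nup210-/- for Egr1. Egr1 was highest in Nup210-/- replicate 4 (16.13 TPM), without which its log2 fold change was 0.21 in place of 0.60. Nr4a1, the most abundant, was at 129 ± 16.6 and 125 ± 33.3 TPM. The median of this list was 0.09 after scaling and -0.00 with TPM as deposited.

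Of 25 partners of these proteins in titin anchoring, the Z-disc and muscle junctions, 24 were tested, with 17 above and 7 below 0 after scaling and a median of 0.10, but 12 and 12 and a median of 0.00 with TPM as deposited. At an unadjusted p of 0.05, 7 were higher and 2 lower. Tcap, which encodes the titin cap protein telethonin, had the highest log2 fold change, 0.36 (limma adjusted p = 0.121), at 2362 ± 79.5 TPM in Nup210-/- against 1974 ± 176 TPM in Nup210+/+ (SD, n = 4). Enah, whose product Mena promotes actin filament growth and binds Xin, had the lowest, -0.61 (SE 0.127, limma adjusted p = 0.115), at 19.2 ± 2.005 and 32.0 ± 4.38 TPM, and with library weights it was -0.69 (limma adjusted p = 0.0412). Actn3, the fast fibre alpha-actinin gene and the most abundant, was at 3619 ± 295 and 3415 ± 243 TPM.

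The 3 remaining lists held few differences at an unadjusted p of 0.05 after scaling. Of 15 genes of the YAP, TAZ and TEAD pathway, 1 was higher and 0 lower at an unadjusted p of 0.05, with a median of -0.01, and with TPM as deposited 1 was higher and 2 lower with a median of -0.10. Tead4, a factor of the MCAT element, was at 2.28 ± 0.411 TPM in Nup210-/- against 1.46 ± 0.323 TPM in Nup210+/+ (log2 fold change 0.48, limma adjusted p = 0.209). Vgll4, a repressor of TEAD factors, had the lowest value of that list (-0.40, or -0.25 without Nup210-/- replicate 4 or Nup210+/+ replicate 1), and Vgll2, a muscle cofactor of TEAD factors, was the most abundant, at 59.6 ± 4.48 and 75.7 ± 10.8 TPM. In the turnover of filamin by chaperones at the Z-disc, 1 of 9 genes was lower and 1 higher at that level, with a median of 0.05 after scaling. With TPM as deposited 3 were lower and 1 higher, with a median of -0.04. On TPM, 2 did not overlap with Nup210-/- lower and 1 with Nup210-/- higher, as for 6.87% and 1.54% of all tested genes. The list, led by Hspa8, summed to 3042.72 to 3346.97 TPM in Nup210-/- against 3411.13 to 3734.3 TPM in Nup210+/+. The chaperone gene Hspa8 was at 1254 ± 112 TPM in Nup210-/- against 1567 ± 104 TPM in Nup210+/+ (log2 fold change -0.23, limma adjusted p = 0.352). Synpo2, which encodes myopodin, was at 258 ± 5.41 and 232 ± 7.95 TPM (log2 fold change 0.25, limma adjusted p = 0.152, and 0.15 with TPM as deposited). Of 11 tested genes of denervated and regenerating fibres, 1 was higher and 0 lower at an unadjusted p of 0.05, with a median of 0.08. Runx1 (-0.40, or -0.20 without Nup210+/+ replicate 2) and Ncam1 (0.33, or 0.13, 0.21 and 0.57 without Nup210-/- replicate 1, Nup210+/+ replicate 1 and Nup210-/- replicate 4) had the extreme log2 fold changes, and Gadd45a, the most abundant, was at 40.4 ± 1.59 and 34.5 ± 4.60 TPM. With single libraries left out, the medians of these lists ran from -0.08 to 0.01 for the YAP, TAZ and TEAD pathway, from -0.04 to 0.07 for filamin turnover and from 0.01 to 0.13 for denervated and regenerating fibres, so the direction of the first and second was not fixed by these data. Those of the immediate early targets (0.01 to 0.13) and of the titin, Z-disc and junction partners (0.05 to 0.16) stayed above 0.

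**Figure D5:**
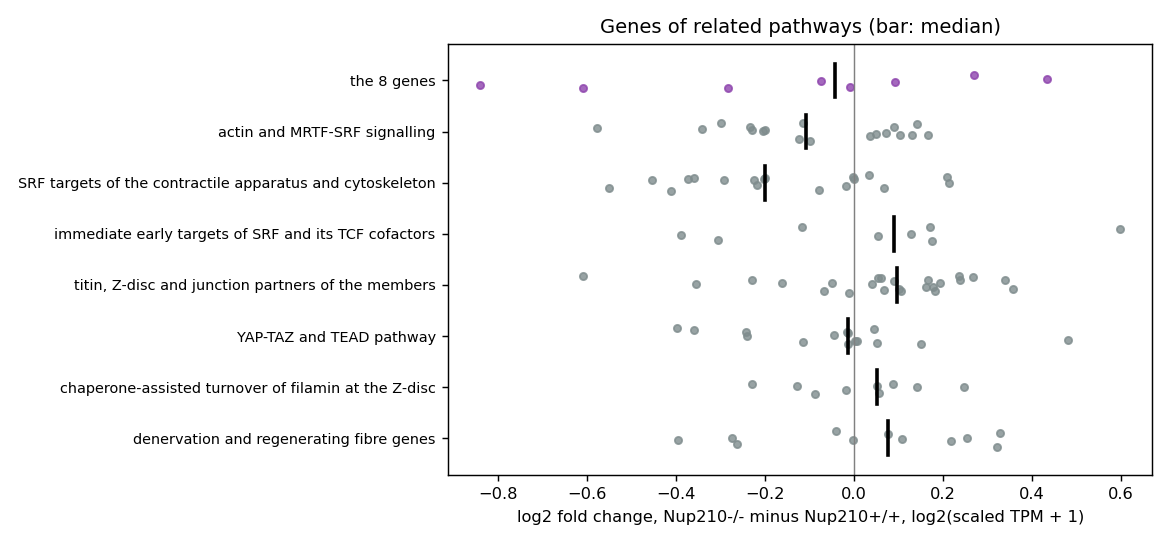
Log2 fold change, Nup210-/- minus Nup210+/+, of each tested gene (points, spread vertically for visibility) in the list of 8 genes and in 7 lists of related genes, with the median of each list as a black bar. The medians run from -0.20 for the contractile and cytoskeletal targets of serum response factor to 0.10 for the titin, Z-disc and junction partners.

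Markers of other cells in the muscle were compared beside these results. The 12 leukocyte markers summed to 237.88 to 262.56 TPM in Nup210-/- against 272.4 to 533.8 TPM in Nup210+/+. All 10 tested markers were below 0, with a median log2 fold change of -0.63 (-0.41 without Nup210+/+ replicate 2). At an unadjusted p of 0.05 in limma, 8 of the 10 were lower, beside 7.18% of all tested genes. Of them 1 was called, Cd52, which fell by 0.81 on the log2 scale (limma adjusted p = 0.0490). Cd52 was no longer called when any single library other than Nup210+/+ replicate 4 was left out (log2 fold changes of -0.82 to -0.73), nor with TPM as deposited (-0.89), with any TPM above 0, without the intensity trend or with the replicate number as a block. The most abundant of them, Cd74 of antigen presentation, was at 107 ± 4.95 TPM in Nup210-/- against 154 ± 41.7 TPM in Nup210+/+. The 6 tendon markers, led by Fmod, summed to 85.74 to 134.51 TPM and 119.51 to 204.12 TPM, with all 6 below 0, a median of -0.53 and 0 called in limma (4 lower at an unadjusted p of 0.05). The estimates of leukocyte and tendon markers thus had the sign of those of Xirp1, Abra, Cfl1 and Dstn. Fat cell and granulocyte precursor markers shared this sign (6 of 6 in each list), as did 7 of 9 slow fibre markers. Of all tested genes, 51.3% were below 0. The part of any of these markers in those differences was not tested.

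The 7 heart markers, which bear on the source of Ankrd1, Csrp3 and Ankrd2, summed to 7.28 to 11.45 TPM in Nup210-/- against 9.53 to 13.04 TPM in Nup210+/+. Most of this was Myl4, 2 of the 7 were at 0 in every library, and a further 3 stayed below 0.5 TPM on average. Fast fibre markers, led by Tnnt3, had a median of 0.18 with 0 of 10 called (3 higher at an unadjusted p of 0.05), and the 6 skeletal muscle identity markers a median of 0.23 with 0 called (4 higher). With TPM as deposited these medians were 0.08 and 0.13. Fat cell markers, led by Fabp4, summed to 521.62 to 826.34 TPM in Nup210-/- against 579.52 to 1360.71 TPM in Nup210+/+, with 0 of 6 called and 0 at an unadjusted p of 0.05. The 6 granulocyte precursor markers, led by Elane, were not called either (0 at an unadjusted p of 0.05), and their median of -1.45 rests on Nup210+/+ replicate 2, without which 0 of the 6 reached the level required for testing.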

How the data were processed

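Quadriceps RNA of 4 Nup210+/+ and 4 Nup210-/- mice was analysed, with genotypes and replicate numbers from the sample labels. The authors trimmed the reads with cutadapt 2.3, aligned them to mm10 with STAR 2.7.0d, estimated expression per gene with RSEM 1.3.1 and Ensembl annotation, and deposited TPM for 47643 genes without pooling replicates. Versions are from the submitters' processing notes. TPM are relative within a library and keep no read depth, so counting errors cannot be given and precision is judged from how the 4 mice per genotype varied. The authors' count test was not repeated, since counts were not used here.

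TPM were scaled by the median of ratios over 15225 genes above 0 in all libraries (factors 0.936 to 1.12). A pseudocount of 1 was added before log2, which understates differences of low genes, and the 14229 genes with a mean of at least 0.5 TPM were compared between genotypes in limma 3.58.1 under R 4.3.3 (eBayes with trend, genotype as the only term, Benjamini-Hochberg adjustment over all genes tested). The procedure was tested on simulated data. No pair of libraries was a duplicate: at most 201 tested genes had equal TPM in any pair.

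The 8 genes, the lists and the motifs were chosen with earlier results of these data known. The genes named were the 8, Nup210, the genes with the lowest and highest log2 fold change and the highest mean TPM in each pathway list, the most abundant gene of each marker list, any list gene past the adjusted threshold, and for each of the 8 genes its 2 most correlated genes. One gene that this rule names is not reported here. Myh7, a slow fibre marker, was named under the last of these. Acta2 and Tagln were named in addition, as tested targets of serum response factor that are also smooth muscle markers. Coordinates and exons are from GENCODE M21 on GRCm38, and windows of 75 bases, the read length, were compared with other genes. Plots used matplotlib 3.10.9 (Python 3.11.15). The alternatives were other scalings (TPM as deposited, upper quartile, and without mitochondrial genes and the 20 highest genes), a pseudocount of 0.1 or 0.5, a minimum of any TPM above 0 or of a mean TPM of 1, eBayes without trend or robust, library weights, the replicate number as a block, and each library left out in turn.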

Additional observations from a re-analysis of the deposited data

Results flagged for a closer look

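The library at either end of each group of 4 was examined by its distance to the next library, taken as a share of the range of the group. Of 50 such groups 3 had a gap beyond the level that chance gives in 1 of 20, where 2.5 are expected, so their number says little beyond chance. The contractile and cytoskeletal targets of serum response factor summed to 35951.5 TPM in Nup210+/+ replicate 3 against 38071.7 to 38187.3 TPM in the other Nup210+/+ libraries (gap 0.948 of the range). The granulocyte precursor markers summed to 381.69 TPM in Nup210+/+ replicate 2 against 0.31 to 2.12 TPM (gap 0.995). The tendon markers summed to 134.51 TPM in Nup210-/- replicate 2 against 85.74 to 88.72 TPM in the other Nup210-/- libraries (gap 0.939). None of the 8 genes was among these results in either genotype.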

How the results depend on the processing

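The number of genes past an adjusted p of 0.05 in limma, 16 with the settings of the report, was 7 with upper-quartile scaling, 14 with TPM as deposited, 27 with a mean TPM of at least 1, 1 of 24374 genes with any TPM above 0, 84 with library weights, and 0 without the intensity trend (1952 genes at an unadjusted p of 0.05). With 1 library left out it ranged from 0 to 10, the 10 coming without Nup210+/+ replicate 4. Xirp1 and Abra were not past this threshold in any of these 8 fits, nor without the trend or with any TPM above 0, while their log2 fold changes stayed between -0.91 and -0.76 and between -0.66 and -0.57 in the 8 fits. Over the other settings the log2 fold change of Xirp1 was -0.93 to -0.84 and that of Abra -0.70 to -0.61. Ankrd23, Csrp3 and Srf took both signs in the fits that left out 1 library, from -0.03 to 0.19, -0.21 to 0.05 and -0.08 to 0.05. Ankrd2 ranged from -0.45 to -0.19, Ankrd1 from 0.31 to 0.55 and Xirp2 from 0.23 to 0.32.

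With the replicate block, 0 genes passed (1850 at an unadjusted p of 0.05). The mice are different animals and the numbers do not pair them: same-numbered libraries had correlations of -0.03, 0.01, 0.02 and 0.09 in their deviations from the genotype means. Depth is unknown from TPM, and with 4 mice per genotype differences as small as those of Ankrd23, Csrp3 and Srf were not detectable against their spread.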
